A study of Mus musculus with 26 samples.

Results

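Collagens are the main structural proteins of the extracellular matrix, built from 3 chains wound into a triple helix and often from the products of different genes. The collagen genes were taken as all named genes whose symbol is Col, a number, the letter a and a number, which gave 44 of the 39179 genes counted in mouse cortex after stroke or sham surgery. They fall into 11 genes of fibrillar chains, 6 genes of basement membrane (type IV) chains and 27 others. The others comprise 9 fibril-associated chains (the FACIT group), 6 type VI beaded-filament chains, 4 transmembrane chains, 3 short-chain network chains, 2 multiplexins and 3 chains of anchoring fibrils or of no set class. Each of the 44 had counts in all 26 libraries, and all 44 passed the filter on low counts that left 16325 genes for testing.

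Fibrillar collagens form the tensile fibres of scar and connective tissue, while type IV collagen forms the sheet under endothelium and around pericytes. Healthy cortex holds little fibrillar collagen outside its vessels and coverings, and its type IV collagen lies in the vessel wall. Fibroblasts and mural cells are the main known makers of fibrillar chains, and several minor collagens, among them Col19a1 and Col25a1, are made by neurons.

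All groups were C57BL/6J mice, and RNA was taken from cortex 3 days after focal ischemia, with the lesion and a rim around it, or from the cortex of sham-operated mice. The diets supplied 60% (high-fat) or 6% (control) of calories as fat for 6 or 15 weeks. On the control diet there were 3 sham and 4 stroke libraries at 6 weeks and 4 stroke libraries at 15 weeks. On the high-fat diet there were 3 sham and 6 stroke libraries at 6 weeks and 6 stroke libraries at 15 weeks. No 15-week sham group was analysed here, so a difference between 15 and 6 weeks is one between stroke tissues and cannot be told apart from age or separate handling.

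The libraries held between 11400882 and 16962682 counts in genes. Levels are given as CPM, that is, counts scaled to the library's TMM-adjusted total of counts in genes, and a gene was called at an adjusted p under 0.05 in edgeR's quasi-likelihood test. Whether each library came from its own animal is not given in the labels, and the p-values speak only of the variation among libraries, part of which may be technical. The 10 genes listed as excitatory neuron markers of cortex summed to between 3218 and 5517 CPM over all libraries, and 9 striatum markers to between 174 and 1454 CPM. Choroid plexus genes, 12 in all, summed to 972 CPM in high-fat 6-week stroke library 6 and to 282 CPM in high-fat sham library 2, against 9.25 to 83.7 CPM in the other 24. At 15 weeks, high-fat stroke library 1 and control-diet stroke library 3 had the lowest activated phagocyte sums among stroke libraries, at 156 and 232 CPM. The RNA is from bulk tissue, in which fewer cells of a type and less RNA per cell cannot be told apart.

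Upstream sequence is shown for the collagen gene with the largest rise, Col3a1, and for the fibrillar gene that fell, Col24a1, because they moved in opposite directions within 1 class. Each line gives 250 bases before the RefSeq start of the gene on build GRCm38.p6, 5′ to 3′ on the gene's own strand, with matches to the motifs below in capitals. The Col3a1 window is chr1:45311288-45311537 on the plus strand, and the Col24a1 window is chr3:145292222-145292471 on the plus strand. No gene of GENCODE M21 overlaps either window.
Col3a1: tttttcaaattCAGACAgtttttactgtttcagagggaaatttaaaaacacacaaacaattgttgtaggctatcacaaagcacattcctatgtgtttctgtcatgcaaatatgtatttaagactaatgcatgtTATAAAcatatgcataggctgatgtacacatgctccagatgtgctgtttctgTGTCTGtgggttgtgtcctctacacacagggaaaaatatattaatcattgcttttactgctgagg
Col24a1: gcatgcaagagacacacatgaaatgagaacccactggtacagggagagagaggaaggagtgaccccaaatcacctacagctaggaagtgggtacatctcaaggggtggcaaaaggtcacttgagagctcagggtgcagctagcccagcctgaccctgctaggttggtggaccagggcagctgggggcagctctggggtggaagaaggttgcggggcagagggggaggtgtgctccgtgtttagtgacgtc
The Col3a1 window holds 1 match to TATAAA, the TATA box sequence, whose first base is 117 bases before the start. Whether this match acts as a promoter box at that distance was not tested. The Col3a1 window also holds 2 matches to CAGACA, the element read by SMAD factors of the TGF-beta pathway, at 239 bases as written and at 65 bases on the opposite strand, where it reads TGTCTG. The Col24a1 window holds no match to these. It also holds none to CCAAT, to the GC box GGGCGG or to the AP-1 element TGANTCA. All were searched on both strands, and no match to 1 motif overlapped a match to another.

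The RefSeq table of 300-base windows, 250 before to 50 after the start, held 38 windows for 35 of the 44 collagen genes, and no window for Col1a1, Col2a1 or Col5a2. GGGCGG was in 23 of the 38 collagen windows (60.5%) and in 35.7% of all 32851 windows. TATAAA was in 13.2% of the collagen windows and in 13.6% of all, CCAAT in 34.2% and 37.4%, CAGACA in 23.7% and 21.0%, and TGANTCA in 2.63% and 7.81%. Col4a1 and Col4a2 lie head to head on opposite strands, with annotated starts 21 bases apart, so that their first exons overlap over the stretch shown here on the plus strand, chr8:11312805-11312826, with the GC box in capitals.
Col4a1 and Col4a2 starts: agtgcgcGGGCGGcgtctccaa
This exon overlap covers 0.295% of the Col4a1 exon length and 0.332% of that of Col4a2, and although the library kit marks strand per the labels' protocols, whether the counting used strand is not given in the sources used here.

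In sham cortex the collagen genes that stood highest per length were not fibrillar. Per kilobase of exon, Col6a1 (a type VI chain) stood at 6.46 CPM, Col19a1 (a FACIT chain) at 6.35, Col4a2 at 4.98 and Col4a1 at 3.96 as means of the control-diet sham group. Col3a1, the fibrillar chain of distensible tissue and early scar, stood at 0.403 CPM per kilobase in that group and took rank 24 of 44. After stroke on the high-fat diet Col4a1 stood highest at 10.3 CPM per kilobase and Col3a1 took rank 5 at 4.13, and at 15 weeks Col4a1 stood highest at 14.4 and Col3a1 took rank 4 at 8.75. Of the summed collagen level per kilobase, fibrillar genes made up 16.7% ± 0.780 (SD, n = 3) in control-diet sham and 17.0% ± 0.635 (SD, n = 3) in high-fat sham. After stroke at 6 weeks they made up 20.8% ± 3.20 (SD, n = 4) on the control diet and 23.6% ± 2.42 (SD, n = 6) on the high-fat diet, and at 15 weeks 29.8% ± 9.97 (SD, n = 4) and 28.6% ± 6.40 (SD, n = 6).

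**Figure D1:**
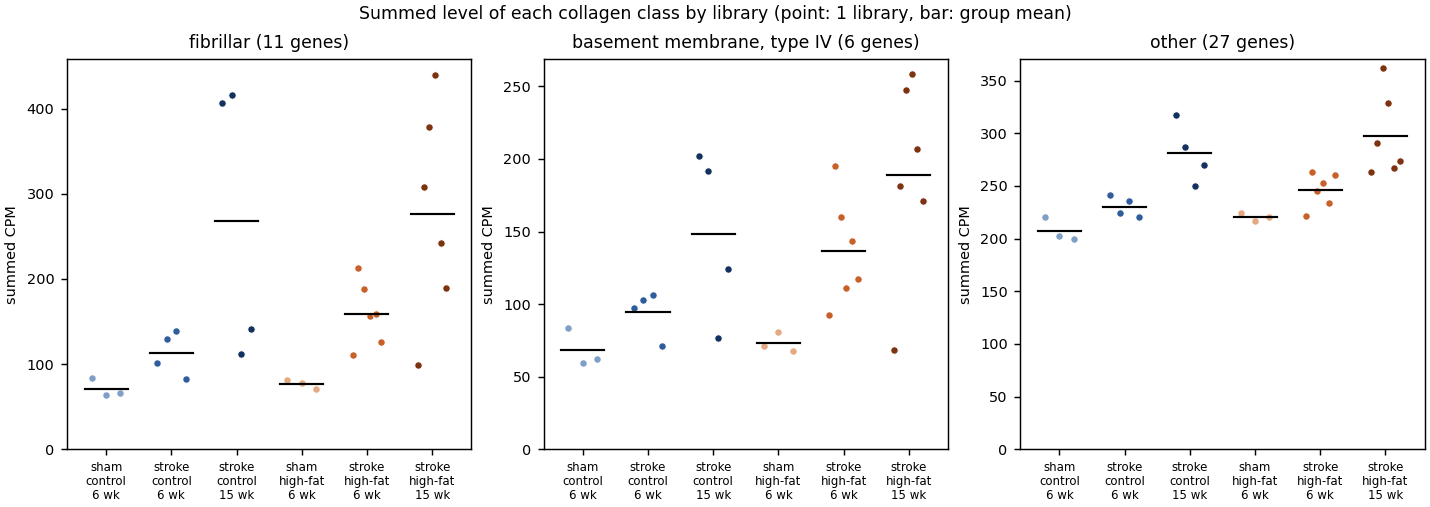
Summed CPM of the 11 fibrillar, 6 basement membrane and 27 other collagen genes in each library, by group (points: libraries, bars: group means, linear axes from 0). Fibrillar sums lie between 64.1 and 83.5 CPM in the 6 sham libraries and reach 439 CPM after stroke at 15 weeks on the high-fat diet, where the lowest library is at 98.6.

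Of the 3 class sums, the fibrillar one had the widest relative gap between sham and stroke, though the 2 multiplexins alone had a wider one, at 5.79 CPM in high-fat sham and 14.3 after stroke and at 5.77 and 9.64 on the control diet. The fibrillar sum was 71.2 ± 10.7 CPM (SD, n = 3) in control-diet sham and 113 ± 26.1 (SD, n = 4) after stroke, and 76.3 ± 5.49 (SD, n = 3) in high-fat sham and 159 ± 37.8 (SD, n = 6) after stroke at 6 weeks. The basement membrane sum was 68.6 ± 13.1 and 94.5 ± 16.0 CPM (SD, n = 3 and 4) on the control diet, and 73.3 ± 6.55 and 137 ± 37.5 (SD, n = 3 and 6) on the high-fat diet. The sum of the other 27 differed least, with 207 ± 11.1 and 230 ± 9.87 CPM (SD, n = 3 and 4) on the control diet and 220 ± 4.07 and 246 ± 16.4 (SD, n = 3 and 6) on the high-fat diet. No test was run on these sums, since the members were chosen with earlier results known.

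Stroke against sham on the high-fat diet at 6 weeks asks how the collagens differ in injured cortex after that diet. Of the 44 genes, 10 rose and 3 fell, beside 14.2% and 8.85% of all 16325 genes called in those directions and 23.1% called in either. The collagen share called higher is thus above that of all genes, and the share called lower is close to it. The 10 were 5 fibrillar genes (Col3a1, Col1a1, Col2a1, Col5a3 and Col5a2), 3 of basement membrane (Col4a1, Col4a5 and Col4a6), the multiplexin Col18a1 and the FACIT Col16a1, and the 3 that fell were Col24a1, Col19a1 and Col26a1. The median log2 fold change was 1.55 over the fibrillar class, 0.93 over the basement membrane class and 0.15 over the others, beside -0.02 over all genes. For 12 of the 44 every stroke library was above every sham library, and for 3 every stroke library was below, beside 15.8% and 10.7% of all genes.

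Among the fibrillar chains, Col3a1 had the highest fold change. It stood at 4.39, 2.41 and 2.48 CPM in the high-fat sham libraries and between 16.4 and 60.9 CPM after stroke, with a median of 40.6. No stroke library overlapped sham, and the lowest was library 1. The rise was 3.71 ± 0.92 on the log2 scale (SE), 13.1-fold, with an edgeR adjusted p of 0.00664.

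Col1a1 and Col1a2 encode the chains of type I collagen, the main fibril of scar and bone. Col1a1 stood at 4.25, 2.27 and 1.77 CPM in sham and between 8.64 and 17.8 after stroke, with a median of 13.1. It rose 4.66-fold (log2 2.22 ± 0.65 SE, edgeR adjusted p = 0.0173), and the groups did not overlap. Col1a2, the partner chain, stood at 12.5, 9.64 and 7.57 CPM in sham and between 15.7 and 43.5 after stroke. Its groups did not overlap either, but its log2 fold change of 1.55 ± 0.58 (SE) missed the threshold, with an edgeR adjusted p of 0.0563.

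Type V chains, which sit inside type I fibrils and set their width, gave calls for Col5a2 and Col5a3 but not for Col5a1. Col5a2 stood at 6.48, 4.47 and 4.74 CPM in sham and between 9.64 and 24.4 after stroke (log2 1.69 ± 0.59 SE, edgeR adjusted p = 0.0420), and Col5a3 at 1.44, 1.63 and 1.63 CPM and between 2.98 and 7.69 (log2 1.70 ± 0.52 SE, edgeR adjusted p = 0.0223). Col5a1, their usual partner, stood at 19.2, 19.6 and 14.9 CPM in sham and between 14.7 and 21.5 after stroke, with a log2 fold change of 0.02 ± 0.24 (SE). The groups of Col5a1 overlapped over nearly their whole range, while those of Col5a2 and Col5a3 were apart. Within each library, the ratio of Col5a2 to Col5a1 was 0.294 ± 0.0580 (SD, n = 3) in high-fat sham and 0.960 ± 0.355 (SD, n = 6) after stroke.

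Col2a1, the fibrillar chain of cartilage, rose from 0.793, 0.993 and 0.920 CPM in sham to between 1.49 and 4.83 CPM after stroke (log2 1.81 ± 0.63 SE, edgeR adjusted p = 0.0405). Col24a1, a fibrillar chain with an interrupted helix, went the other way, from 4.90, 6.74 and 6.65 CPM in sham to between 1.76 and 4.36 CPM after stroke. It fell by 0.82 ± 0.25 on the log2 scale (SE, edgeR adjusted p = 0.0183), and its groups did not overlap. The remaining fibrillar genes, Col11a1, Col11a2 and Col27a1, had log2 fold changes of 0.18, -0.17 and 0.35 and did not pass the test.

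In the basement membrane class, Col4a1 stood at 30.0, 35.2 and 29.9 CPM in sham and between 46.97 and 114 after stroke, with a median of 74.7. Every stroke library lay above sham, and the rise was 2.43-fold (log2 1.28 ± 0.41 SE, edgeR adjusted p = 0.0273). Col4a2, whose product joins that of Col4a1 in the common trimer, stood at 34.7, 39.6 and 32.8 CPM in sham and between 36.2 and 68.7 after stroke. Its groups overlapped in 1 stroke library, with a log2 fold change of 0.44 ± 0.27 (SE, edgeR adjusted p = 0.254).

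Col4a5 and Col4a6, chains of another type IV network, both passed the test, with log2 fold changes of 0.80 ± 0.26 and 1.17 ± 0.35 (SE, edgeR adjusted p = 0.0293 and 0.0182). Col4a5 stood at 4.39, 2.84 and 3.54 CPM in sham and between 5.24 and 7.93 after stroke. Col4a6 stood at 1.51, 1.91 and 1.27 CPM in sham and between 2.98 and 3.99 after stroke, and neither gene's groups overlapped. Col4a3 and Col4a4, known mainly from kidney, stood under 1 CPM as group means and did not pass the test.

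Of the other classes, Col18a1, the source of endostatin, stood at 2.67, 3.12 and 1.98 CPM in sham and between 4.59 and 14.1 after stroke (log2 1.83 ± 0.52 SE, edgeR adjusted p = 0.0150). Col16a1, a FACIT chain at fibril surfaces, stood at 12.4, 10.9 and 11.4 CPM in sham and between 19.5 and 30.8 after stroke (log2 1.05 ± 0.32 SE, edgeR adjusted p = 0.0222). Neither gene had a stroke library within the range of sham.

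Col19a1 and Col26a1 fell. Col19a1, a FACIT chain of neurons in the brain, stood at 42.5, 42.9 and 40.8 CPM in sham and between 26.6 and 37.5 after stroke, a log2 fold change of -0.44 ± 0.12 (SE, edgeR adjusted p = 0.0116). Col26a1 stood at 4.54, 6.31 and 6.30 CPM in sham and between 3.33 and 3.99 after stroke, a log2 fold change of -0.65 ± 0.18 (SE, edgeR adjusted p = 0.0120). Both were lower in all 6 stroke libraries than in all 3 sham libraries. Col25a1, a transmembrane chain of neurons and among the most abundant collagens here, did not pass the test, at 38.9, 47.02 and 45.4 CPM in sham and between 34.7 and 59.5 after stroke (log2 -0.05 ± 0.21 SE).

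The type VI chains, which form beaded filaments around cells, did not pass the test on this diet. Col6a1 and Col6a2 had log2 fold changes of 0.10 ± 0.15 and 0.05 ± 0.16 (SE), and Col6a3 had 1.35 ± 0.54 (SE, edgeR adjusted p = 0.0744). The remaining FACIT, transmembrane, short-chain and anchoring genes lay between -0.47 and 1.21 on the log2 scale and did not pass the test either.

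These calls rest on few sham libraries. The count of 13 dropped to 2 without sham library 2, to 2 without sham library 3 and to 7 without sham library 1, beside 12%, 15.3% and 20.0% of all genes. It was 0 when high-fat sham library 2 and stroke library 6, which stood high in choroid plexus genes, were both left out, with the Col3a1 log2 fold change then 3.64 (edgeR adjusted p = 0.0533) and 11.1% of all genes called, and it was 2 with the share of counts outside genes as a covariate, beside 12%.

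**Figure D2:**
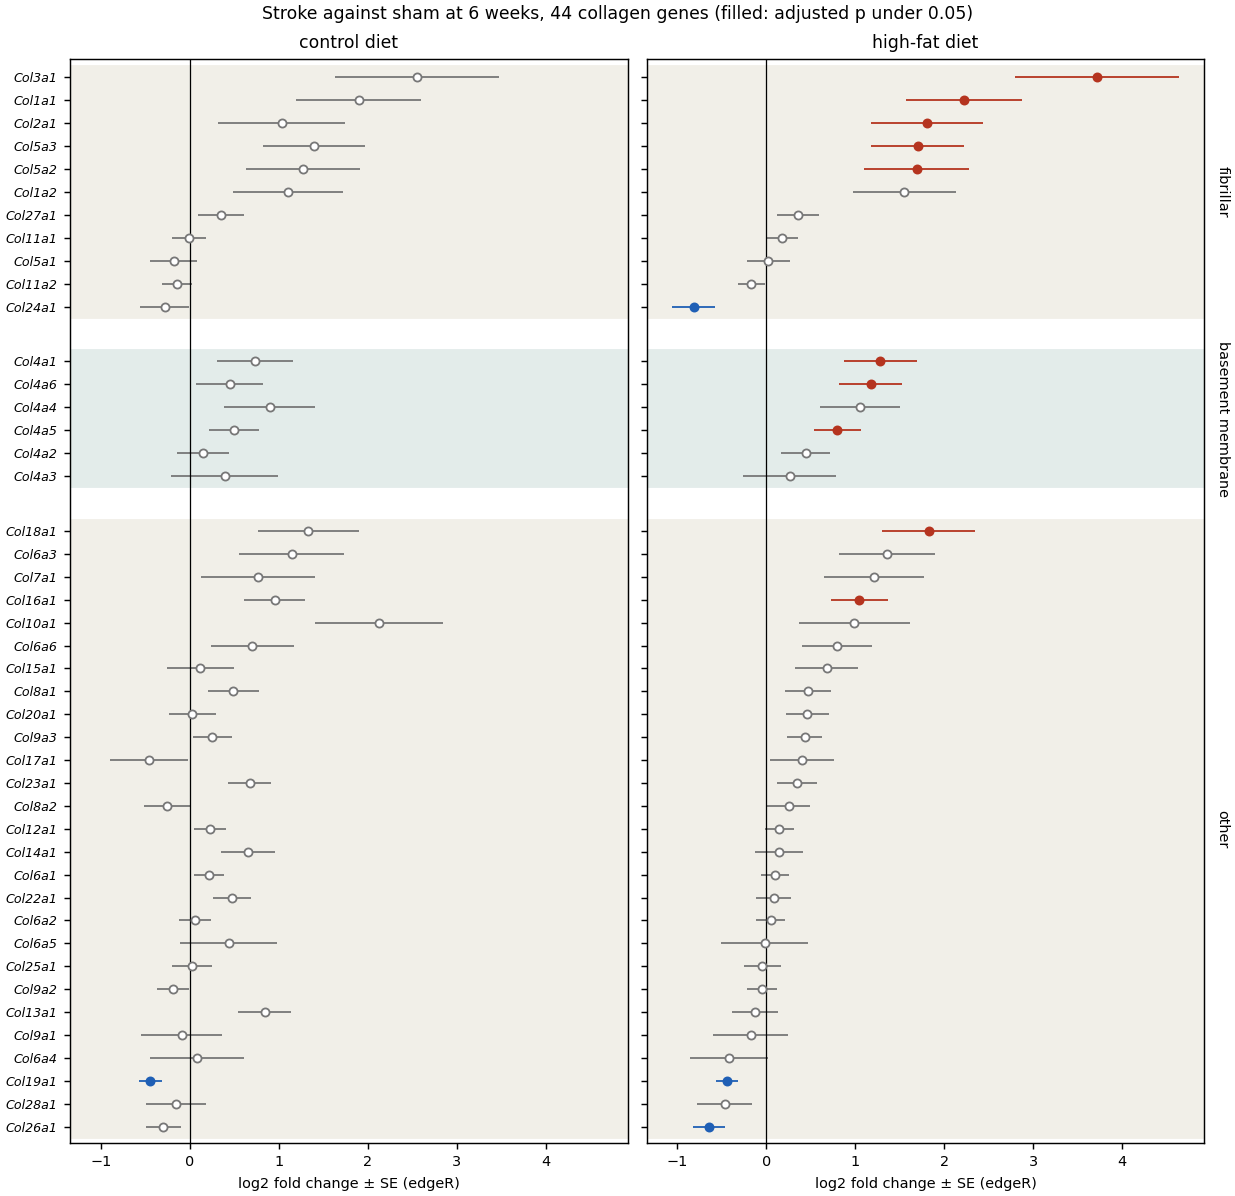
Log2 fold change of stroke against sham at 6 weeks for the 44 collagen genes, control diet on the left and high-fat diet on the right, by class (points: edgeR estimates, bars: SE, filled: adjusted p under 0.05, red higher and blue lower). On the high-fat diet 10 are filled higher and 3 lower, and on the control diet only Col19a1 is filled.

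The same surgery comparison on the control diet gave 1 called collagen gene. Col19a1 stood at 45.4, 42.1 and 43.6 CPM in sham and at 35.4, 24.3, 36.0 and 33.4 CPM after stroke, all 4 below all 3. It fell by 0.44 ± 0.13 on the log2 scale (SE, edgeR adjusted p = 0.0429). Of all genes, 2.57% were called lower, 5.1% higher and 7.68% in either direction.

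For 17 of the 44 genes every control-diet stroke library was above every sham library, beside 14.9% of all genes, and for Col19a1 alone every one was below, beside 11.6%. The 17 comprise 6 fibrillar genes, Col4a4 of the basement membrane class and 10 others. Col3a1 stood at 5.46, 4.20 and 2.20 CPM in sham and at 15.1, 34.8, 33.2 and 9.61 after stroke, with a log2 fold change of 2.55 ± 0.92 (SE, edgeR adjusted p = 0.0916). Col1a1 stood at 1.73, 2.73 and 2.39 CPM in sham and at 6.68, 9.81, 12.9 and 5.003 after stroke, with a log2 fold change of 1.90 ± 0.70 (SE, edgeR adjusted p = 0.101).

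In both genes library 4 was the lowest after stroke, and its activated phagocyte sum, 260 CPM, was the lowest of the 4 as well. Col16a1 was at 0.95 ± 0.34 (SE, edgeR adjusted p = 0.0891), Col18a1 at 1.33 ± 0.56 (SE, edgeR adjusted p = 0.151) and Col4a1 at 0.73 ± 0.43 (SE, edgeR adjusted p = 0.318), all as log2 fold changes. Fitting the 7 libraries alone called 10 collagen genes, beside 15.9% of all genes, DESeq2 called 5, beside 11%, and leaving out either sham library 1, 2 or 3, or stroke library 2 or 4, called 0. The difference between the diets in the stroke effect was tested as an interaction and called 0 of 44 by edgeR and by DESeq2, beside 0.0% and 0.00613% of all genes, with 1 of 44 at an unadjusted p under 0.05, beside 5.6%. The collagen genes with the smallest p in it, each at an edgeR adjusted p of 0.832, were Col13a1 (log2 -0.97 ± 0.40 SE), Col17a1 (0.86 ± 0.56) and Col24a1 (-0.53 ± 0.37). Without control-diet sham library 3 the Col17a1 value was 0.31, and without control-diet sham library 2 that of Col24a1 was -0.33. Col17a1 rests on few counts, with group means between 0.381 and 0.781 CPM.

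**Figure D3:**
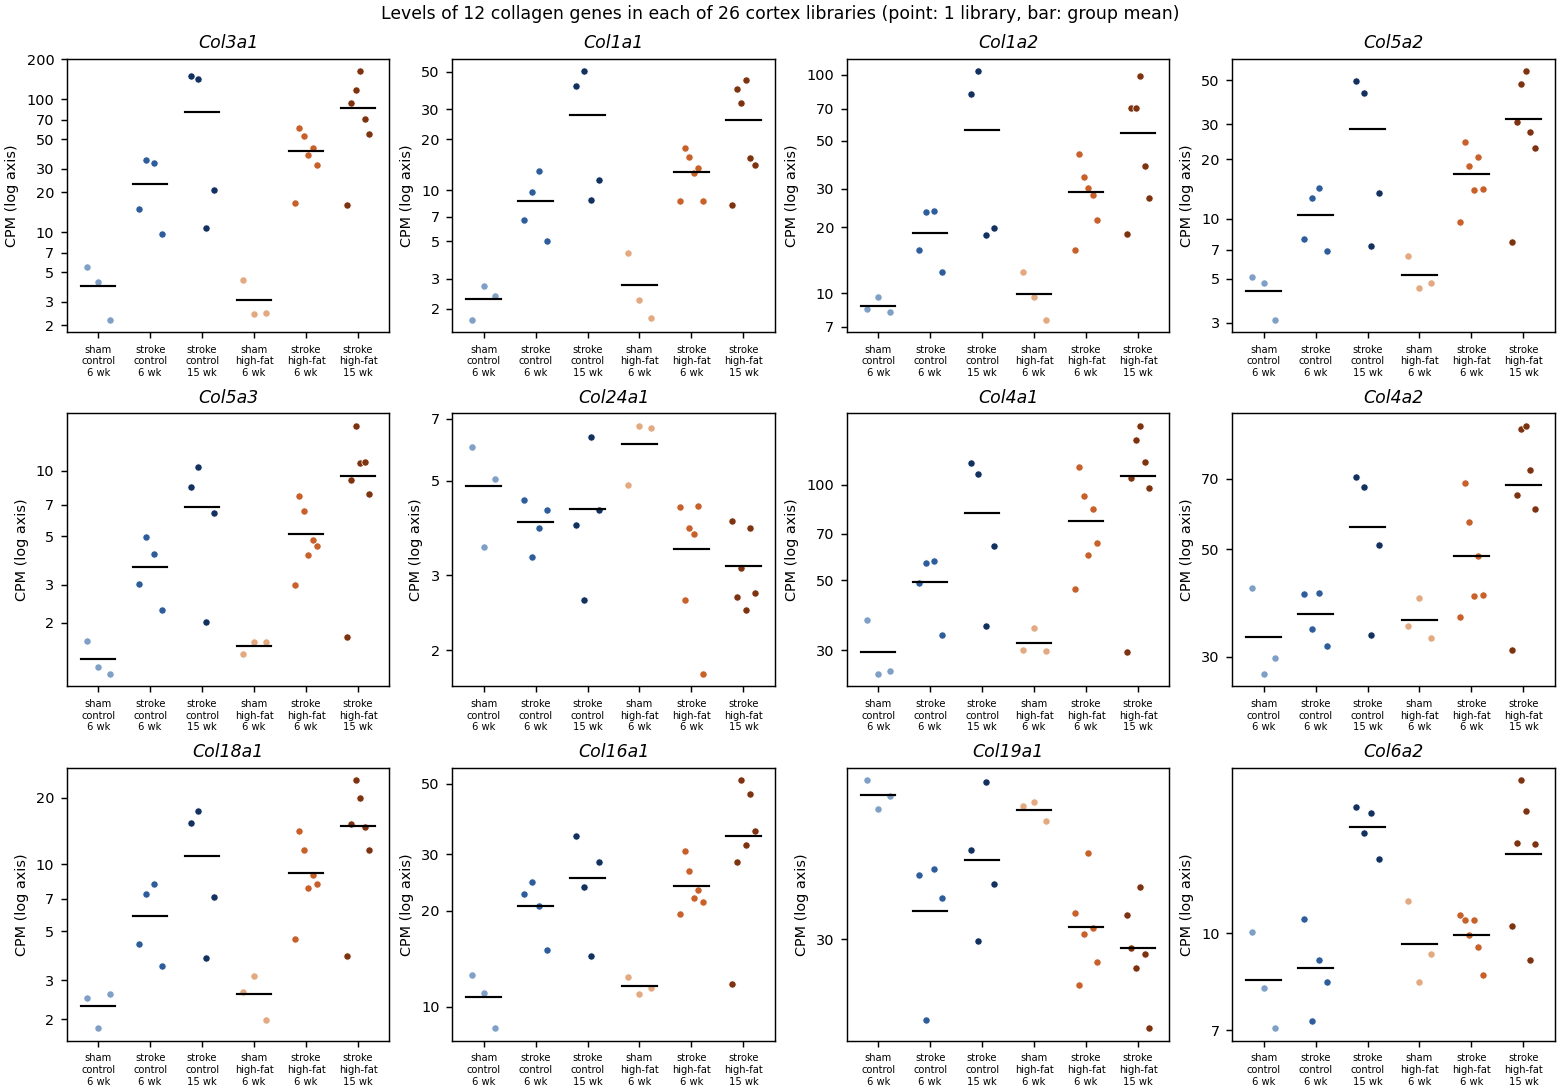
CPM of 12 collagen genes in each of the 26 libraries, by group (points: libraries, bars: group means, log axes). Col3a1 lies between 2.20 and 5.46 CPM in the 6 sham libraries and between 9.61 and 161 in the 20 stroke libraries. Col19a1 lies between 40.8 and 45.4 CPM in sham and between 23.8 and 45.3 after stroke, where control-diet 15-week library 3 is within the sham range.

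The ratios of Col4a1 to Col4a2 and of Col1a1 to Col1a2, partner chains of 1 protein each, did not overlap between sham and stroke libraries. The ratio of Col4a1 to Col4a2 was 0.902, 0.914 and 0.867 in control-diet sham and 0.865, 0.891 and 0.909 in high-fat sham. After stroke it was 1.21, 1.66, 1.41 and 1.06 on the control diet at 6 weeks, and between 1.30 and 1.73, with a median of 1.62, on the high-fat diet. At 15 weeks it was 1.66, 1.61, 1.07 and 1.25 on the control diet and between 0.955 and 1.71 on the high-fat diet. All 20 stroke libraries thus lay above all 6 sham libraries, and the lowest was high-fat 15-week library 1.

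The ratio of Col1a1 to Col1a2 was likewise 0.205 to 0.341 over the sham libraries and 0.40 to 0.578 over the stroke libraries. The ratio of Col6a3 to Col6a1 was 0.0845 ± 0.00791 (SD, n = 3) in high-fat sham and 0.202 ± 0.0644 (SD, n = 6) after 6-week stroke, and the groups overlapped, with a stroke library at 0.0855 and sham up to 0.0929. At 15 weeks on the control diet the Col6a3 to Col6a1 ratio went down to 0.0641 and that of Col5a2 to Col5a1 to 0.271, both within the control-diet sham range. These ratios are descriptions within libraries, and no test was run on them.

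**Figure D4:**
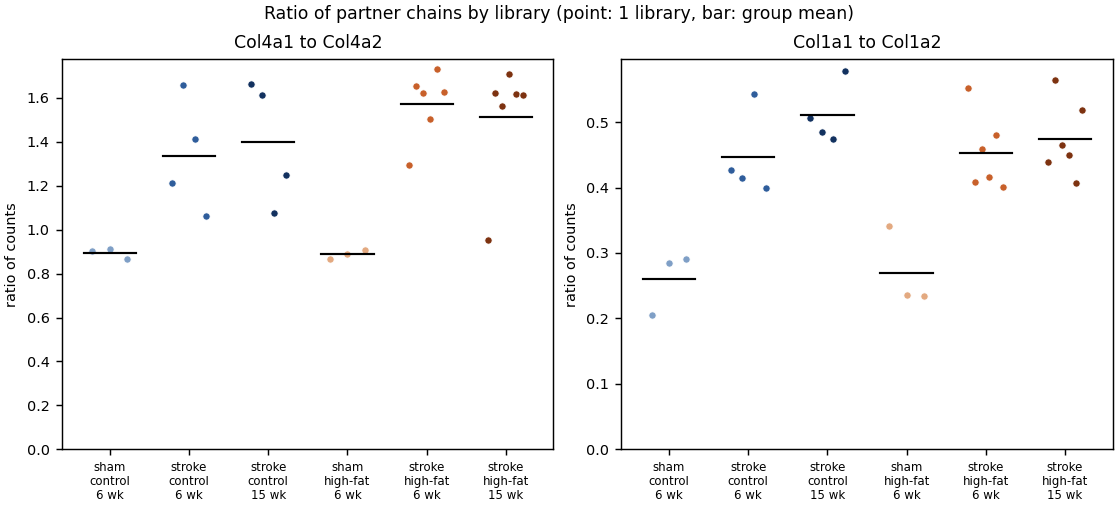
Ratio of Col4a1 to Col4a2 (left) and of Col1a1 to Col1a2 (right) in each library, by group (points: libraries, bars: group means, linear axes from 0). For Col4a1 to Col4a2 the 6 sham libraries lie between 0.865 and 0.914 and the stroke libraries between 0.955 and 1.73.

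The diet comparisons called no collagen gene, and 0.0% of all genes in each. After stroke at 6 weeks the collagen genes with the smallest p were Col17a1 (log2 1.05 ± 0.35 SE), Col26a1 (-0.47 ± 0.17) and Col20a1 (0.43 ± 0.22), each with an edgeR adjusted p of 0.667. Col17a1 had only 5, 6, 6 and 4 counts in the control-diet libraries of that comparison. Of the 44, 2 had an unadjusted p under 0.05 at 6 weeks, 2 at 15 weeks and 1 in sham, beside 6.99%, 7.96% and 4.79% of all genes. DESeq2 called 0 of 44 in each, beside 0.0%, 0.0613% and 0.0123% of all genes. In stroke tissue no collagen gene had groups apart, beside 1.04% of all genes higher and 1.21% lower at 6 weeks and 0.41% and 0.711% at 15 weeks.

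At 15 weeks they were Col6a4 (log2 1.34 ± 0.44 SE, edgeR adjusted p = 0.499), Col19a1 (-0.33 ± 0.11, adjusted p = 0.531) and Col24a1 (-0.44 ± 0.24, adjusted p = 0.651), the last at -0.19 and Col19a1 at -0.22 without control-diet library 3. Col6a4, a type VI chain, stood at 0.511, 1.14, 2.49 and 1.44 CPM on the control diet and between 1.59 and 5.45 on the high-fat diet, and the groups overlapped. In sham they were Col13a1 (0.70 ± 0.32), Col14a1 (0.57 ± 0.33) and Col6a4 (0.88 ± 0.54), each with an edgeR adjusted p of 0.965, and Col6a4 lay between 0.53 and 1.58 with 1 library left out. For 5 of the 44 every high-fat sham library was above every control-diet sham library, beside 4.66% of all genes, and none was below, beside 7.0%. The 5 were Col10a1, Col12a1, Col13a1, Col14a1 and Col6a6. Col10a1 rests on few counts, with 2, 3 and 2 in control-diet sham and 3, 5 and 4 in high-fat sham. So does Col6a6, with 3, 4 and 4 and then 4, 6 and 4. The stroke-only interaction of diet and weeks called 0 of 44 by edgeR and by DESeq2, with 1 at an unadjusted p under 0.05, beside 0.0% of all genes called by each and 4.85% under that p. Its smallest p belonged to Col17a1 (log2 -1.57 ± 0.49 SE, edgeR adjusted p = 0.946), Col6a6 (-0.98 ± 0.48) and Col8a1 (-0.63 ± 0.33). Col17a1 and Col6a6 rest on few counts here too, with 5, 6, 6 and 4 and with 5, 4, 7 and 7 in control-diet 6-week stroke.

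Between 15 and 6 weeks of the control diet, Col6a2 was the 1 collagen gene called after stroke, beside 0.564% of all genes called in either direction, 0.239% higher and 0.325% lower. It stood at 10.6, 7.26, 9.07 and 8.36 CPM at 6 weeks and at 15.9, 14.4, 15.5 and 13.1 CPM at 15 weeks. The groups did not overlap, and the rise was 1.67-fold (log2 0.74 ± 0.16 SE, edgeR adjusted p = 0.0448). Control-diet 15-week library 3, lowest of its group in Col3a1 and Col1a1, was not low in Col6a2.

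For 4 of the 44 every 15-week library was above every 6-week library on the control diet, beside 3.45% of all genes, namely Col6a2, Col5a1, Col12a1 and Col11a1, and Col10a1 alone was below, beside 5.93%. Some fibrillar genes split the 4 libraries, while others, such as Col11a1 at 10.1, 10.3, 11.3 and 11.4 CPM, did not. Col3a1 stood at 148, 141, 10.7 and 20.6 CPM and Col1a1 at 41.3, 50.2, 8.77 and 11.5, so that libraries 1 and 2 lay far above 3 and 4. Over the same libraries the 13 fibroblast and leptomeningeal markers summed to 290, 333, 138 and 185 CPM. The Col3a1 log2 fold change was 1.80 ± 0.69 (SE, edgeR adjusted p = 0.199). The striatum markers summed to 580 to 1201 CPM at 6 weeks and 230 to 608 at 15 weeks, with a median log2 fold change of -1.34. Of these markers 0 of 9 were called, beside 0.564% of all genes, and their part in these collagen differences was not tested.

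On the high-fat diet no collagen gene was called between 15 and 6 weeks, beside 2.35% of all genes (0.735% higher, 1.62% lower), while 17 of the 44 had an unadjusted p under 0.05, beside 17.7% of all genes, and DESeq2 called 4, beside 4.39%. The smallest p belonged to Col6a1 (log2 0.43 ± 0.12 SE, edgeR adjusted p = 0.0683), Col6a2 (0.43 ± 0.13, adjusted p = 0.0814) and Col12a1 (0.41 ± 0.13, adjusted p = 0.0905). Col6a1 stood between 31.0 and 35.6 CPM at 6 weeks and between 37.3 and 57.9 at 15 weeks. It was the 1 collagen gene whose groups did not overlap upward, beside 0.557% of all genes, and none did so downward, beside 1.23%. Col3a1 stood between 16.1 and 161 CPM at 15 weeks, and library 1 held the lowest value.

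Without high-fat library 1 the high-fat comparison called 9 collagen genes, beside 8.01% of all genes. Without that library and control-diet library 3 together the high-fat comparison called 18 higher and 0 lower, beside 10.5% of all genes in either direction and 5.39% higher. The control-diet comparison then called 13 higher and 0 lower, beside 3.15% in either direction and 1.82% higher. Those libraries were picked for their low injury markers, a choice that by construction raises the 15-week levels that move with them. In the control-diet comparison the call of Col6a2 was lost without any 1 of stroke libraries 2, 3 or 4 at 6 weeks or 1, 3 or 4 at 15 weeks.

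**Figure D5:**
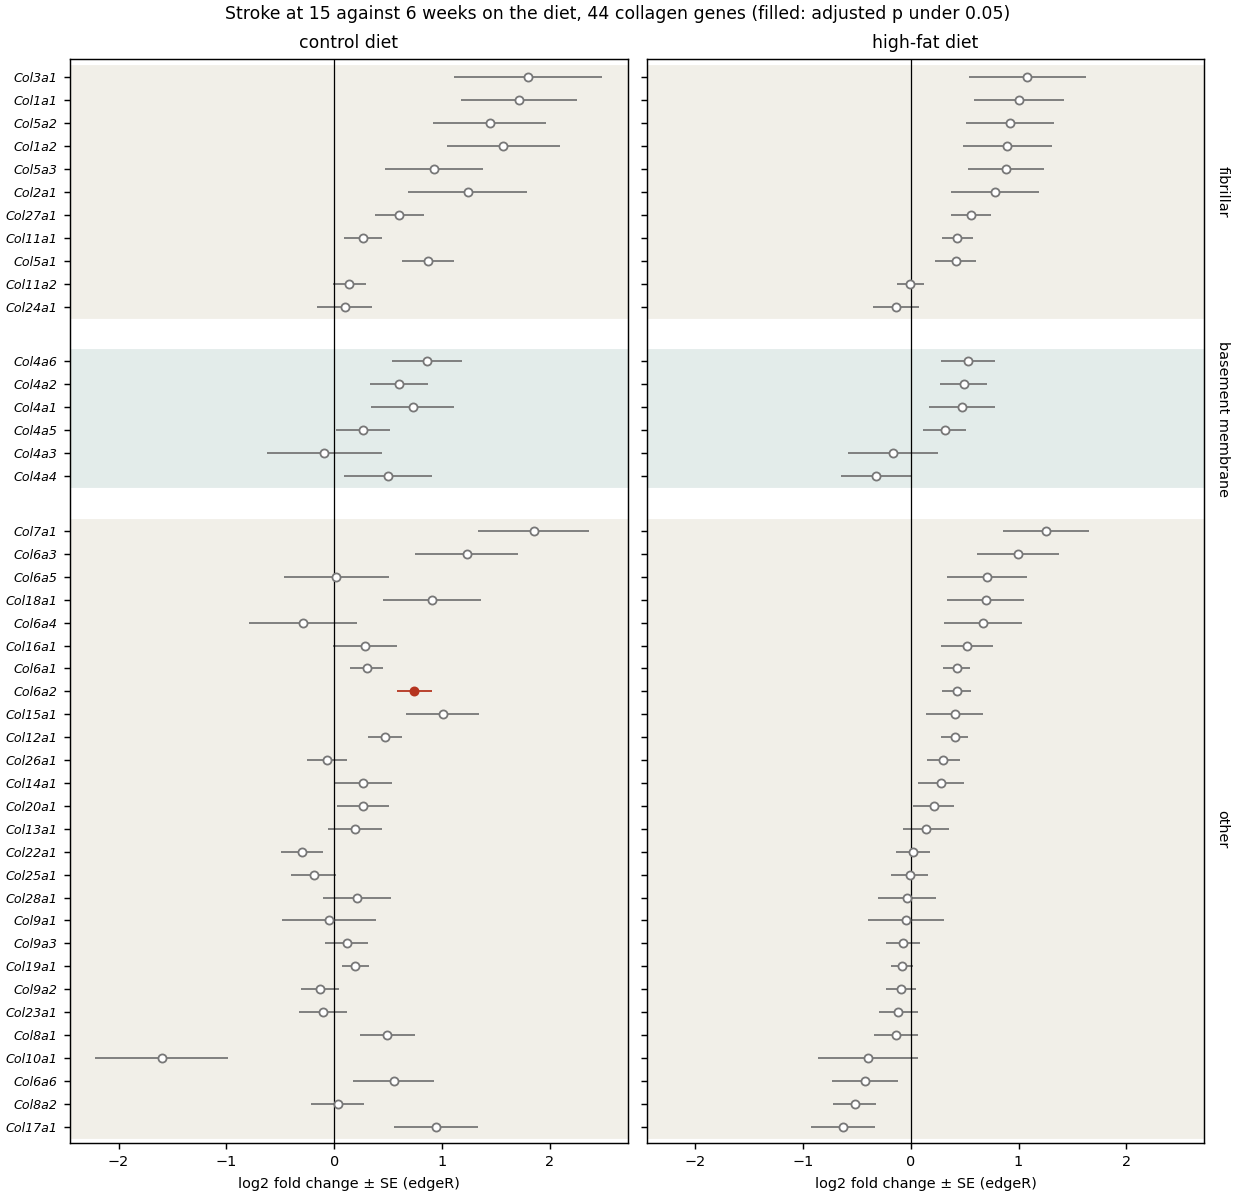
Log2 fold change of stroke tissue at 15 against 6 weeks for the 44 collagen genes, control diet on the left and high-fat diet on the right, by class (points: edgeR estimates, bars: SE, filled: adjusted p under 0.05). Only Col6a2 on the control diet is filled, and 35 of 44 estimates on the control diet and 28 of 44 on the high-fat diet lie above 0.

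Enzymes that modify and fold collagen chains were also called in stroke against sham on the high-fat diet. Of the 20 genes of prolyl and lysyl modification and folding, 9 rose after stroke and 0 fell, beside 14.2% and 8.85% of all genes, with a median log2 fold change of 0.47 beside -0.02 over all genes. On the control diet 1 of 20 rose, beside 5.1% of all genes. That 1 was Creb3l1, a transcription factor of collagen secretion, at 0.449 CPM after stroke and 0.115 in sham as group means. Creb3l1 was also called higher at 15 than at 6 weeks after stroke on the control diet, beside 0.239% of all genes. Its mean there was 1.47 CPM at 15 weeks (log2 1.72 ± 0.35 SE, edgeR adjusted p = 0.0357). Plod1, a lysyl hydroxylase, rose from 10.5 ± 1.501 CPM (SD, n = 3) to 26.1 ± 4.09 (SD, n = 6), with an edgeR adjusted p of 0.00260. P4hb, a subunit of the prolyl 4-hydroxylase, rose from 100.2 ± 7.40 to 151 ± 17.2 CPM (SD, n = 3 and 6, edgeR adjusted p = 0.0123). Colgalt1, which adds galactose to hydroxylysine, and Ppib, a prolyl isomerase, were also among the 9, with log2 fold changes of 0.41 ± 0.08 and 0.57 ± 0.12 (SE).

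Of 14 genes of export, propeptide removal and crosslinking, 5 rose in stroke against sham on the high-fat diet (all genes 14.2%) and 0 in stroke against sham on the control diet (all genes 5.1%). Loxl1, a lysyl oxidase that crosslinks fibres, rose from 1.04 ± 0.179 to 3.46 ± 0.708 CPM (SD, n = 3 and 6, edgeR adjusted p = 0.00350), and Loxl3, Loxl2 and Adamts14, a procollagen N-proteinase, were among the 5. Loxl2 stood at a mean of 0.0236 CPM in sham and 1.24 after stroke. Of 9 small fibril-associated proteoglycans tested, Dcn, Lum and Bgn passed with log2 fold changes of 2.30, 2.69 and 1.61 and Prelp with -0.72 on the high-fat diet, and none passed on the control diet. Of all genes, 14.2% were called higher and 8.85% lower on the high-fat diet, and 5.1% and 2.57% on the control diet.

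Of 17 basement membrane partners, 4 were called higher in stroke than in sham within the high-fat groups (Sparc, Nid2, Lamb1 and Hspg2), beside 14.2% of all genes, and 2 within the control-diet groups (Lamb1 and Sparc), beside 5.1%. Sparc, a collagen-binding matrix protein, rose after stroke from 67.6 ± 5.08 to 129.8 ± 16.9 CPM (SD, n = 3 and 6) in the high-fat groups and from 66.9 ± 1.37 to 112 ± 15.5 (SD, n = 3 and 4) in the control-diet groups. Of 10 collagen receptors and uptake genes, 4 were called higher after stroke within the high-fat groups (Lair1, Itga1, Itgb1 and Ddr1) and 1 within the control-diet groups (Lair1), beside the same shares. Lair1, an inhibitory collagen receptor of leukocytes, had log2 fold changes of 1.47 ± 0.23 and 1.16 ± 0.24 (SE, edgeR adjusted p = 0.000289 and 0.00723). Of 14 genes of the TGF-beta pathway, 6 were called higher in stroke than in sham within the high-fat groups (all genes 14.2%) and 4 within the control-diet groups (all genes 5.1%), among them the receptors Tgfbr1 and Tgfbr2 in each. No gene of these 6 pathway lists was called in the diet comparisons or in the interaction of surgery and diet. Between 15 and 6 weeks, Creb3l1 on the control diet was the only one called.

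Summed markers of collagen-making cells differed between the same groups, though not every marker moved the same way. The 13 fibroblast and leptomeningeal markers summed to 120 to 128 CPM in high-fat sham and 157 to 266 after 6-week stroke. Of 12 tested, 3 were called higher, beside 14.2% of all genes. In the control-diet groups the sums were 114 to 138 and 168 to 200 CPM, with 0 of 12 called, beside 7.68% of all genes. On the high-fat diet 9 of the 12 tested had a positive log2 fold change, and Dcn went from 13.5 to 66.7 CPM as group means. Means were lower after stroke for Igf2 (14.0 and 12.2 CPM), Slc22a6 (5.73 and 4.64), Slc6a13 (8.56 and 8.49) and Dpt (0.166 and 0.108). Dcn and Lum stand in this list and among the small proteoglycans. Pdgfra, at 62.2 and 80.7 CPM, also stands among the oligodendrocyte precursor markers. Dpt, a fibroblast marker, was at 0 in 4 of the 26 libraries, and no other marker of this list was at 0 in any library.

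The 12 pericyte and smooth muscle markers summed to 245 to 259 CPM in high-fat sham and 275 to 357 after stroke, with 5 of 12 higher. The 12 endothelial markers summed to 221 to 277 and 293 to 404 CPM, with 6 of 12 higher. Both counts stand beside 14.2% of all genes. In the control-diet groups the pericyte and smooth muscle markers summed to 258 to 282 CPM in sham and 299 to 332 after stroke, with 1 of 12 higher. There the endothelial markers summed to 243 to 278 and 303 to 329 CPM, with 0 of 12 higher. These 2 counts stand beside 5.1% of all genes. The 10 activated phagocyte markers summed to 95.03 to 115 CPM in high-fat sham and 613 to 1397 after stroke, with 9 of 10 higher. In the control-diet groups they summed to 107 to 117 and 260 to 1012 CPM, with 9 of 10 higher, beside 5.1% of all genes. Of the choroid plexus genes 9 were tested and 0 called on either diet. Of all genes, 23.1% were called in either direction in the high-fat groups and 7.68% in the control-diet groups. High-fat sham library 2 and stroke library 6 stood far above the others in these genes, so 0 called there does not show equal levels. The 10 genes listed as excitatory neuron markers summed to 5013 to 5517 CPM in high-fat sham and 3733 to 4583 after stroke, with 5 of 10 lower, beside 8.85% of all genes. In the control-diet groups, where Col19a1 fell as well, they summed to 4997 to 5370 and 3865 to 4667 CPM, with 0 of 10 called, beside 7.68% of all genes. Snap25 was the largest part of these sums, with means of 2951 CPM in high-fat sham and 2243 after stroke. On the control diet its means were 3030 and 2428 CPM. Slc17a7 differed little, with means of 520 and 491 CPM on the high-fat diet and 482 and 486 on the control diet. On each diet 1 of the 10 had a positive log2 fold change. Of 9 oligodendrocyte precursor markers, 7 were called higher after stroke in the high-fat groups and 0 in the control-diet groups, beside 14.2% and 5.1% of all genes. The part of these cell types in the collagen differences was not tested.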

How the data were processed

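RNA from cortex was sequenced as stranded total RNA in 26 libraries, per the labels' protocols. The submitters' processing notes name Trim Galore, STAR, featureCounts, HTSeq and build mm9, without role or version. The authors deposited raw counts per Ensembl gene, 1 table per library. The 5 summary lines of each table together held 45.69% to 58.16% of its counts and were left out. Of these lines, the 1 for counts outside genes held 18.9% to 32.1%, and this is the share used as a covariate below. Names came from a table that matched 37607 of 39179 identifiers, exon lengths from GENCODE M21 (GRCm38) and upstream sequences from RefSeq (GRCm38.p6). Since these builds differ from mm9, no gene coordinates were taken from the counts.

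Counts were filtered with filterByExpr (minimum count 10), scaled by TMM and fitted with edgeR 4.0.16 (R 4.3.3, quasi-likelihood, robust) over all 26 libraries with 1 mean per group and 20 residual degrees of freedom. In this fit 9 contrasts were tested, with Benjamini-Hochberg adjustment over 16325 genes. The SE is the log2 fold change divided by the square root of F. The script was tested on simulated data. Between libraries of 1 group the chi-square per degree of freedom ran from 3.52 to 76.2, above sampling noise, and each library counted once.

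Alternatives were RLE size factors, DESeq2 1.42.0, voom with quality weights (limma 3.58.1), no low-count filter, only the groups compared, the share of counts outside genes as a covariate, and leaving out libraries. Named genes were the called members with a mean of at least 1 CPM in 1 group, the 3 highest of each class, the 3 with the smallest p where none was called, and up to 4 called genes per pathway list. Of the genes this rule names in the pathway lists, 1 is not reported here. Other collagen genes printed with values, and the chain ratios, were picked after their values were seen. The members and lists were chosen with earlier results of these data known.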

Additional observations from a re-analysis of the deposited data

Results flagged for a closer look

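Over 108 sets of 4 or 6 libraries (27 named collagen genes in 4 groups), 1 set had a library far from the rest by Dixon's ratio at the 95% level, where chance alone gives about 1 in 20 sets. Col6a4, a type VI chain, stood at 2.24 CPM in control-diet 6-week stroke library 4, and the nearest of the other 3 libraries stood at 1.53 CPM, a gap of 0.933 of the whole range.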

How the results depend on the processing

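The alternatives were run on collagen genes and not on the pathway genes. Each collagen gene that was called, or had 1 of the 3 smallest p where none was, kept its direction under them. Of 104 checks of called genes outside leave-one-out, 70 kept the call and 34 lost it, and of 132 checks with 1 library left out, 85 kept it and 47 lost it. Under the control diet, the stroke comparison's collagen count of 1 became 0 with no filter, 0 with the outside-genes covariate, 5 by DESeq2, 5 by voom, 10 with only the groups compared and 0 to 1 with 1 library left out. Of all 16325 genes, 1253 were called there in the main fit, 725 with the covariate, 1792 by DESeq2 and 2830 by voom. With no filter 767 of 28095 were called and with only the groups compared 2453 of 15416. With 1 library left out, 303 to 1448 genes were called. On the high-fat diet the count of 13 became 8 with no filter, 2 with the outside-genes covariate, 0 with high-fat sham library 2 and stroke library 6 left out and 2 to 15 with 1 library left out, beside 13 by RLE, 15 by DESeq2, 19 by voom and 16 with only the groups compared. Of all 16325 genes, 3769 were called there in the main fit, 1960 with the covariate, 3775 by RLE, 4037 by DESeq2 and 5814 by voom. With no filter 3272 of 28095 were called, with only the groups compared 3958 of 15660, and without the named sham and stroke libraries 1833 of 16547. With 1 library left out, 1991 to 3736 genes were called. For 15 against 6 weeks on the control diet the count of 1 became 0 with no filter, 0 with the covariate, 3 by DESeq2, 3 by voom, 0 with only the groups compared, 13 without both 15-week libraries of low injury markers and 0 to 1 with 1 library left out. Of all genes, 92 were called there in the main fit, 286 by DESeq2, 301 by voom and 514 of 16300 without both libraries of low injury markers. None was called with no filter, with the covariate or with only the groups compared, and 0 to 133 were called with 1 library left out. On the high-fat diet the count of 0 became 4 by DESeq2, 13 by voom, 18 without those libraries and 0 to 9 with 1 library left out. Of all 16325 genes, 384 were called there in the main fit, 716 by DESeq2 and 1812 by voom. Without both libraries of low injury markers 1715 of 16300 were called, and with 1 library left out 135 to 1308. The cause of these changes was not tested. The diet comparisons and interactions stayed at 0 collagen genes under each alternative run, beside at most 10 of all 16325 genes, by DESeq2 in 15-week stroke. Without TMM the mean sum of the other collagen class in high-fat sham was 211 CPM in place of 220, and the other class sums moved by less than 1 SD. No paired analysis was possible because the labels carry no replicate numbers.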
